A study of Mus musculus with 8 samples.

Results

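The methylation-controlled germline genes are 10 genes that germ cells transcribe and that most other cells hold silent, namely Dazl, Ddx4, Mael, Sycp1, Sycp3, Tex19.1, Tdrd9, Piwil2, Asz1, and Slc25a31. They were chosen by symbol, and 10 of 10 were found among the 24354 genes of the expression table. RNA was sequenced in 8 libraries, 2 for each of 4 mouse cell types. ESCs were the wild-type E14 embryonic stem cell line, kept with serum and LIF. NSCs were a neural stem cell line heterozygous for 2 transgenes (OG2+/-/ROSA26+/-), of which OG2 places GFP under the distal Oct4 enhancer and ROSA26 drives lacZ, and they grew on gelatin with EGF and FGF2. EPSCs were a wild-type line of extended pluripotent stem cells from C57BL/6 embryos, and the EPSC-NSC hybrid cells were tetraploid cells made by fusing EPSCs with these NSCs through polyethylene glycol, so that they carry both transgenes from the NSC parent. EPSCs and hybrid cells shared the N2B27-LCDM medium, and ESCs, EPSCs, and hybrid cells shared inactivated C3H mouse embryonic fibroblasts as feeder cells. Both libraries of a group carry the name of 1 line, so the spread between them describes repeated libraries and not independent derivations or fusions. The library names of EPSCs and of hybrid cells also carry different p tags, which may give the passage. A difference in passage between these 2 groups cannot be told apart from fusion.

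Expression is given as FPKM, a fragment count per kilobase of transcript length per 1000000 mapped fragments, so levels of different genes can be compared per unit of length. The values are relative to the total of each library and do not show an overall doubling of RNA in a tetraploid cell. The depth, derived from the steps between FPKM values, was between 22.0 and 32.6 per library, in units of 1000000 fragments. The marker genes fitted the labels, since the 8 pluripotent markers summed to between 4686 and 5633 FPKM in ESCs, EPSCs, and hybrid cells and to at most 0.55 FPKM in NSCs. The 8 neural stem cell markers summed to 4406 and 4450 FPKM in NSCs and to at most 28.6 FPKM elsewhere. Markers of spermatids stayed at or below a sum of 0.265 FPKM in every library, with Prm1, Prm2, Tnp1, and Acrv1 listed at 0 throughout. Markers of fibroblasts, the feeder cell type, differed between groups and are given beside the results below.

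Genes of this class are a textbook case of silencing through DNA methylation. Their promoters hold CpG dinucleotides that are methylated when the early embryo implants, and demethylation in primordial germ cells precedes their activation for germ cell and meiotic work. In pluripotent cells a repressor complex around E2F6, MGA, MAX, L3MBTL2, and PCGF6 is also known to hold many of them down, through E2F-type and E-box sequences in their promoters. DNA methylation itself was not measured in these libraries, so the name of the class is background and could not be checked here.

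Because CpG content and these motifs are the features through which the class is known to be controlled, the promoters were read from RefSeq (GRCm38.p6), as 300 bases from 250 before to 50 after each gene start. They were found for 9 of the 10 genes, with Piwil2 as the exception. For Ddx4 the window (chr13:112652261-112652560) lies inside the gene span given below. Its CpG count and motifs are therefore downstream of the outermost annotated start. For Tdrd9 the start used also lies inside the gene span, and its window (chr12:111971309-111971608) covers the outermost start. The 9 promoters held a median of 21 CpG, compared with 13 for the 17193 promoters of genes in the expression table. Ddx4 held 38 CpG and Dazl 28, followed by Mael with 24, Slc25a31 with 22, and Sycp1 with 21. Asz1 held 17, Tex19.1 held 16, Sycp3 held 15, and Tdrd9, with 10, was the lowest of the class. By this count the class ran from percentile 42.6 (Tdrd9) to percentile 93.7 (Ddx4) of these 17193 promoters.

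**Figure D1:**
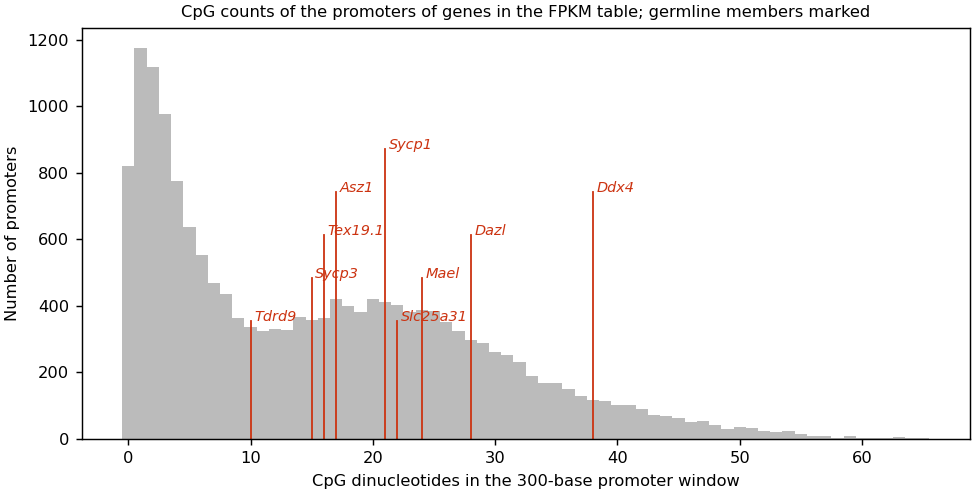
The grey histogram gives the number of promoters (vertical axis) for each count of CpG dinucleotides in the 300-base window (horizontal axis), over 17193 genes of the expression table. Red lines mark 9 germline genes, which spread from 10 CpG in Tdrd9 to 38 in Ddx4; the height of a red line carries no value.

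The E2F-type sequence GCGGGA was searched on both strands, where it reads TCCCGC on the other, and so was the palindromic E-box CACGTG. The E2F-type sequence was in 6 of 9 promoters of the class and in 25.8% of the promoters of listed genes. The E-box was in 6 of 9 and in 8.18%, and both were in 5 of 9 and in 2.78%. Among the 8910 promoters with 10 to 38 CpG, as in the class, the shares were 39.1%, 11.3%, and 4.35%. No E2F-type match overlapped an E-box match in the class. Mael, Sycp1, Sycp3, Ddx4, and Slc25a31 held both sequences, Tex19.1 held the E2F-type sequence alone, and Tdrd9 held the E-box alone. Dazl and Asz1 held neither, which says only that these letters are not in the window. A match is a description of sequence and not a binding site.

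The stretches of 180 bases that end just before the earliest annotated start are shown for 5 genes on which the results below turn. Capitals mark the E2F-type sequence and the E-box, and each stretch runs 5′ to 3′ toward the gene. They lie in GRCm38 at chr11:121145963-121146142, plus strand, for Tex19.1, at chr17:50293637-50293816, minus strand, for Dazl, and at chr1:166238748-166238927, minus strand, for Mael. Those of the synaptonemal complex genes lie at chr10:88459389-88459568, plus strand, for Sycp3, and at chr3:102936101-102936280, minus strand, for Sycp1.
Tex19.1: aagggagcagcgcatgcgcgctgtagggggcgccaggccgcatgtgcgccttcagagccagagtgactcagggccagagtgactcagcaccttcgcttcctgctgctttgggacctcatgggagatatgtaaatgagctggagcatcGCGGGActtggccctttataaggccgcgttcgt
Dazl: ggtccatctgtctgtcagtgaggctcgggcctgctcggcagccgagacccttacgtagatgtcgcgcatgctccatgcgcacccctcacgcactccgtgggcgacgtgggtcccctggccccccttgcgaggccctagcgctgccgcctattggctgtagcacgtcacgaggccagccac
Mael: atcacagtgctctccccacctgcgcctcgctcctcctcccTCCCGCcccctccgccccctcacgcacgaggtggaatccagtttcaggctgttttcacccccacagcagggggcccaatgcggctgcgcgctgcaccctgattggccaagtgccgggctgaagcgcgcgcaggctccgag
Sycp3: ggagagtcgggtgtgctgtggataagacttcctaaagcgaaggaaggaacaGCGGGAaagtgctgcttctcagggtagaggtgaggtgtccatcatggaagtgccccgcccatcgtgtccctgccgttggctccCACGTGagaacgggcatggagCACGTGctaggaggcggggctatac
Sycp1: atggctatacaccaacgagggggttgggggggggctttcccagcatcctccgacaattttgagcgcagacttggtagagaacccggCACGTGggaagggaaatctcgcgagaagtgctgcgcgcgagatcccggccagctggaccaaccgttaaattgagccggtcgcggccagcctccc

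Counted from the RefSeq start, with bases before it negative, the E2F-type match of Tex19.1 began at position -33. Sycp3 carried a pair of E-boxes at -64 and -43, downstream of an E2F-type match at -147. Sycp1 had its E-box at -94, and Mael had an E2F-type match at -143. The second E2F-type match of Mael, its E-box, and the E2F-type match of Sycp1 lay outside the printed stretches.

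The RNA-binding proteins DAZL and DDX4 are post-transcriptional regulators on which germ cell development depends. Dazl (chr17:50279393-50293620, minus strand) was at 2.199 and 1.89 FPKM in ESCs, at 0.0387 and 0 FPKM in NSCs, at 8.16 and 10.8 FPKM in EPSCs, and at 22.0 and 35.8 FPKM in hybrid cells. No library of one group reached into the range of another, and the order was hybrid cells, EPSCs, ESCs, and NSCs. Ddx4 (chr13:112598333-112652633, minus strand), an RNA helicase of germ granules also called Vasa, was at 5.19 and 5.17 FPKM in ESCs, at 0.0681 and 0.108 FPKM in NSCs, at 10.1 and 10.9 FPKM in EPSCs, and at 6.03 and 5.48 FPKM in hybrid cells. Its highest group was the EPSCs, with the hybrid cells next to the ESCs.

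Mael, Piwil2, Tdrd9, Asz1, and Tex19.1 act against transposons in germ cells, the first 4 of them in the piRNA pathway, where small RNAs guide PIWI proteins to transposon transcripts. Tex19.1 (chr11:121146143-121148314, plus strand), a mammal-specific gene that limits transposon activity in germ cells, placenta, and pluripotent cells, had the highest level of the class. It was at 14.2 and 13.4 FPKM in ESCs, at 0 in both NSC libraries, at 108.9 and 146.8 FPKM in EPSCs, and at 269.8 and 278.6 FPKM in hybrid cells. The hybrid mean lay at percentile 98.6 of all listed genes, whereas the ESC mean lay at percentile 78.2. Mael (chr1:166201385-166238744, minus strand), which encodes the germ granule protein Maelstrom, was at 3.23 and 2.97 FPKM in ESCs, at 0 in both NSC libraries, at 4.16 and 5.78 FPKM in EPSCs, and at 6.73 and 11.7 FPKM in hybrid cells. Its groups did not overlap, but the upper EPSC library came within 1 FPKM of the lower hybrid library.

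Piwil2 (chr14:70372477-70436898, minus strand), a PIWI protein that binds piRNAs, was at 1.57 and 1.32 FPKM in ESCs, at 0.0447 and 0.0954 FPKM in NSCs, at 6.17 and 6.68 FPKM in EPSCs, and at 8.69 and 7.37 FPKM in hybrid cells. EPSCs and hybrid cells were its neighbouring groups. Tdrd9 (chr12:111971488-112068854, plus strand), a Tudor-domain helicase of the piRNA pathway, stayed low throughout, at 0.0869 and 0.0146 FPKM in ESCs, 0 in both NSC libraries, 0.0587 and 0.0754 FPKM in EPSCs, and 0.18 and 0.124 FPKM in hybrid cells. The ESC and EPSC libraries of Tdrd9 overlapped. Asz1 (chr6:18050964-18109061, minus strand), which encodes a germ granule scaffold on mitochondria, was at 0 in the ESC and NSC libraries, at 0.118 and 0.284 FPKM in EPSCs, and at 0.245 and 0.115 FPKM in hybrid cells. Asz1 was thus above 0 in EPSCs and hybrid cells alone, and these groups overlapped.

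SYCP1 and SYCP3 build the synaptonemal complex, which joins homologous chromosomes in meiosis, with SYCP1 as the transverse filament and SYCP3 in the lateral element. Sycp1 (chr3:102818499-102936100, minus strand) was at 0.285 and 0.342 FPKM in ESCs, at 0 in both NSC libraries, at 2.83 and 3.25 FPKM in EPSCs, and at 1.21 and 1.30 FPKM in hybrid cells. EPSCs were highest and the hybrid cells lay between EPSCs and ESCs. Sycp3 (chr10:88459587-88473236, plus strand) was at 54.4 and 56.5 FPKM in ESCs, at 0 and 0.0761 FPKM in NSCs, at 11.3 and 16.5 FPKM in EPSCs, and at 5.26 and 8.07 FPKM in hybrid cells. Sycp3 was the member with its highest level in ESCs, and the order was ESCs, EPSCs, hybrid cells, and NSCs. Exons of Sycp3 overlap Chpt1 on the opposite strand, and the strand setting used in counting is not given in the sources used here, so fragments of the overlap cannot be assigned with certainty.

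Slc25a31 (chr3:40708871-40726094, plus strand) encodes the ADP/ATP carrier of the testis, also called ANT4, which takes over from the carriers of other tissues in male meiosis. It was at 0.560 and 0.314 FPKM in ESCs, at 0.0367 and 0 FPKM in NSCs, at 0.665 and 1.14 FPKM in EPSCs, and at 0.852 and 0.646 FPKM in hybrid cells. EPSCs and hybrid cells overlapped, and both lay above ESCs. Its paralogs of other tissues were abundant in all 4 groups. Slc25a4 had means of 343.2 FPKM in ESCs, 406.8 in NSCs, 243 in EPSCs, and 324.8 in the hybrid cells, and Slc25a5 had means between 674.4 FPKM in ESCs and 842.6 FPKM in hybrid cells.

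**Figure D2:**
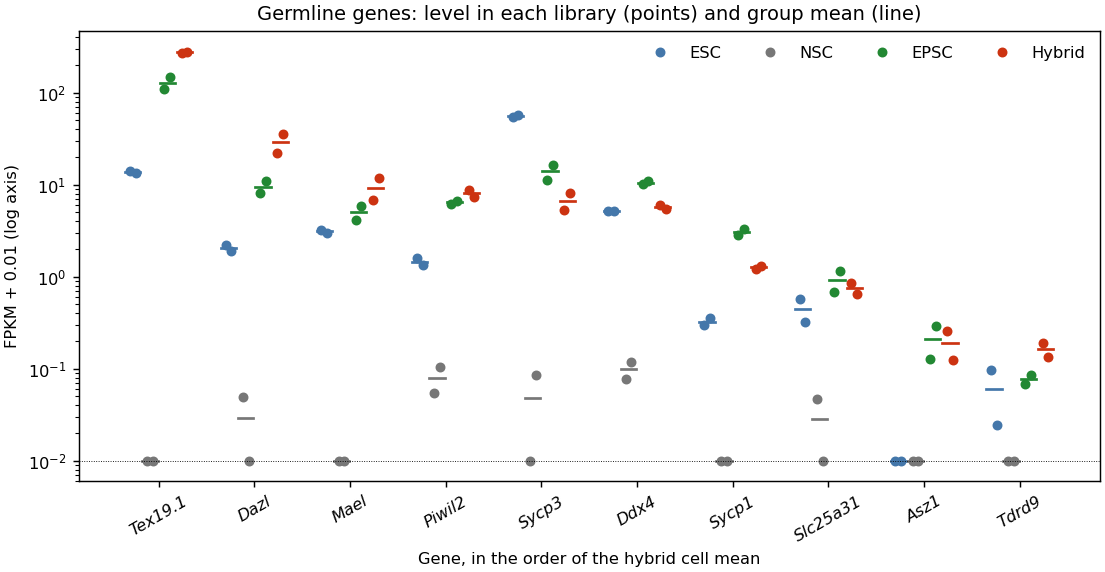
Each point is 1 library and each line a group mean (2 libraries), for 10 germline genes on a log axis of FPKM + 0.01; points on the dotted line are listed at 0. Tex19.1 reached 269.8 and 278.6 FPKM in hybrid cells, Sycp3 was highest in ESCs at 54.4 and 56.5 FPKM, and every NSC point (grey) stayed at or below 0.108 FPKM.

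The comparison with NSCs asked whether the class, silent in the somatic fusion partner, was transcribed in the pluripotent cells and in the hybrid. All 10 genes were at or below 0.108 FPKM in both NSC libraries, and Mael, Sycp1, Tex19.1, Tdrd9, and Asz1 were listed at 0 in both. A count of 3 fragments, which is the limit that a count of 0 allows, corresponds to between 0.0195 FPKM for Piwil2 and 0.141 FPKM for Sycp3 over the libraries, and this limit covers counting error only. Against this floor, the NSC values of Ddx4 and Piwil2 were above 3 fragments in both libraries and that of Dazl in 1 library. Silence in NSCs therefore means a level near or below the limit of this depth.

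Groups were tested with limma on log2(FPKM + 1) in 1 fit of all 8 libraries, over the 13239 genes with a mean of at least 1 FPKM in at least 1 group, with Benjamini-Hochberg adjustment and a threshold of 0.05. Fold changes below are differences on this log2 scale, which understates the change of low genes, and of the class Dazl, Ddx4, Mael, Sycp1, Sycp3, Tex19.1, and Piwil2 passed this filter. They passed it through the groups in which they are high, so their direction against NSCs, and that of Sycp1 against ESCs, was largely fixed by the filter, and their counts say nothing of Tdrd9, Asz1, and Slc25a31. With 2 libraries per group, the smallest p of an exact permutation test is 0.333, so single genes rest on the spread that limma shares over genes.

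In EPSCs, 7 of 7 tested genes were above their NSC level, a comparison in which 45.2% of all tested genes were higher and 41% lower. Tex19.1 differed most, by 6.99 ± 0.12 (SE, adjusted p = 4.6e-09 in limma), followed by Sycp3 with 3.83 ± 0.21 (adjusted p = 9.4e-07), and Sycp1 differed least, by 2.01 ± 0.08 (adjusted p = 1.5e-07). The median of the 7 was 3.35 and that of all tested genes 0.08. By the rule in the study's methods, which asks for a mean over 3 FPKM and more than 3 times the mean of the other group, 7 members passed beside 28.8% of tested genes.

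In hybrid cells, 7 of 7 were again higher than in NSCs, where 44.5% of tested genes were higher and 42% lower. Tex19.1 differed by 8.10 ± 0.12 (adjusted p = 2.7e-09), Dazl by 4.84 ± 0.22 (adjusted p = 3.6e-07), and Sycp1 by 1.17 ± 0.08 (adjusted p = 2.8e-06). The median of the class was 3.07, and 6 members passed the ratio rule beside 29% of tested genes. The member that did not was Sycp1, whose hybrid mean of 1.26 ± 0.07 FPKM (SD, n = 2) lies under 3 FPKM.

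In ESCs, 7 of 7 were higher than in NSCs as well, where 42.8% of tested genes were higher and 41.9% lower. Here Sycp3 led with 5.77 ± 0.21 (adjusted p = 1.1e-07), ahead of Tex19.1 with 3.89 ± 0.12 (adjusted p = 6.7e-08), and Sycp1 differed by 0.39 ± 0.08 (adjusted p = 0.00175). The median was 2.03, and 4 members (Ddx4, Mael, Sycp3, and Tex19.1) passed the ratio rule beside 27.6% of tested genes. These comparisons share the NSC libraries. When the libraries were scaled to a common sum of FPKM, the median of all tested genes against NSCs moved to -0.50 for hybrid cells, -0.48 for EPSCs, and -0.46 for ESCs, and the share of higher genes among those called fell from between 50.5% and 52.4% to between 34.2% and 35%. The 7 members stayed called higher in the 3 comparisons with NSCs under this scaling.

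EPSCs and ESCs are both pluripotent and differ here in line, derivation, and medium, which cannot be told apart. Dazl, Ddx4, Sycp1, Tex19.1, and Piwil2 were higher in EPSCs, Sycp3 was lower, and Mael did not pass the test. The count of 5 higher and 1 lower among 7 stands beside 33.7% higher and 27.3% lower of all tested genes, and the median of the class was 1.60 against 0.04. On the log2 scale Tex19.1 differed most, by 3.11 ± 0.12 (adjusted p = 3.6e-06 in limma). It was at 127.8 ± 26.8 FPKM in EPSCs and 13.8 ± 0.57 FPKM in ESCs (SD, n = 2), a ratio of means of 9.28. Sycp1 had a similar ratio of 9.71 at low levels, with a log2 difference of 1.62 ± 0.08 (adjusted p = 6.5e-06).

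The ratios of Dazl, Piwil2, and Ddx4 were smaller. Dazl was 4.64 times higher in EPSCs (log2 difference 1.77 ± 0.22, adjusted p = 3.8e-04), Piwil2 4.45 times (1.60 ± 0.10, adjusted p = 2.3e-05), and Ddx4 2.02 times (0.89 ± 0.08, adjusted p = 1.1e-04). Mael had a ratio of 1.60 with a log2 difference of 0.53 ± 0.23 (adjusted p = 0.078), although its libraries did not overlap. Sycp3 went the other way, with 13.9 ± 3.66 FPKM in EPSCs and 55.4 ± 1.48 FPKM in ESCs (log2 difference -1.94 ± 0.21, adjusted p = 2.0e-04). By the ratio rule 5 members passed, 4 of them higher in EPSCs (Dazl, Piwil2, Sycp1, and Tex19.1) and 1 lower (Sycp3), beside 4.72% of tested genes.

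The comparison of hybrid cells with EPSCs asked whether the class reached the level of the pluripotent fusion partner. It divided the class: Dazl, Mael, and Tex19.1 were higher in hybrid cells, Ddx4, Sycp1, and Sycp3 were lower, and Piwil2 did not pass the test. These 3 higher and 3 lower of 7 stand beside 22.5% higher and 21.9% lower of all tested genes, and the median of the class was 0.28 against 0.00. By the ratio rule 1 member passed, Dazl, beside 1.59% of tested genes.

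Dazl was at 28.9 ± 9.76 FPKM in hybrid cells and 9.49 ± 1.88 FPKM in EPSCs (SD, n = 2), a ratio of 3.05 and a log2 difference of 1.49 ± 0.22 (adjusted p = 0.00195 in limma). The lower hybrid library, at 22.0 FPKM, was above the upper EPSC library, at 10.8 FPKM. Tex19.1 was at 274.2 ± 6.22 FPKM against 127.8 ± 26.8 FPKM, a ratio of 2.14 and a log2 difference of 1.11 ± 0.12 (adjusted p = 7.3e-04). Mael was at 9.22 ± 3.52 FPKM against 4.97 ± 1.14 FPKM, with a log2 difference of 0.74 ± 0.23 (adjusted p = 0.0331). The call for Mael was lost without the first EPSC library (0.55, adjusted p = 0.156) and without the second hybrid library (0.39, adjusted p = 0.0997). Dazl missed the ratio rule when either of these libraries was left out, while it remained called by limma.

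The genes of the synaptonemal complex were both lower in hybrid cells. Sycp1 was at 1.26 ± 0.07 FPKM against 3.04 ± 0.30 FPKM, a ratio of 0.413 (log2 difference -0.84 ± 0.08, adjusted p = 3.6e-04). Sycp3 was at 6.67 ± 1.98 FPKM against 13.9 ± 3.66 FPKM, a ratio of 0.478 (log2 difference -0.96 ± 0.21, adjusted p = 0.00851). Ddx4 was at 5.76 ± 0.39 FPKM against 10.5 ± 0.57 FPKM, a ratio of 0.55 (log2 difference -0.76 ± 0.08, adjusted p = 6.4e-04). Piwil2 had a ratio of 1.25 and a log2 difference of 0.28 ± 0.10 (adjusted p = 0.0603), and it was called only when the second hybrid library was left out (0.38, adjusted p = 0.0259).

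**Figure D3:**
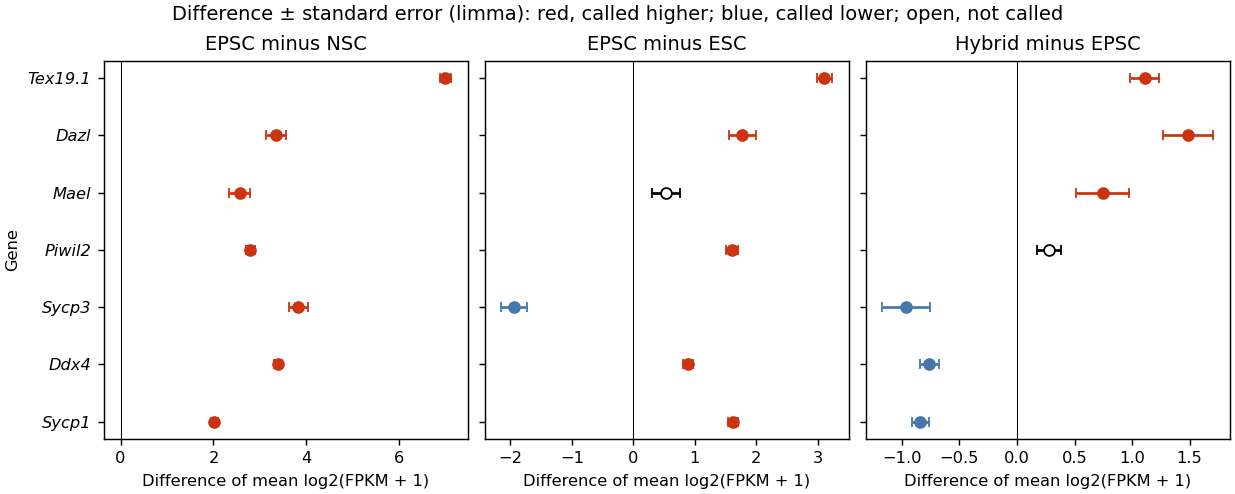
Points are differences of mean log2(FPKM + 1) from limma for the 7 tested germline genes, with bars of 1 standard error and a separate horizontal scale per panel, for EPSCs against NSCs, EPSCs against ESCs, and hybrid cells against EPSCs; red marks genes called higher, blue called lower, and open points those not called. All 7 lie to the right of 0 against NSCs, Sycp3 alone is lower in EPSCs than in ESCs, and the hybrid panel holds 3 red, 3 blue, and 1 open point.

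A tetraploid hybrid combines an EPSC genome with an NSC genome, so its level can also be set beside both parents. On a log2(FPKM + 1) scale that runs from 0 (mean of NSCs) to 1 (mean of EPSCs), the hybrid libraries lay at 1.34 and 1.54 for Dazl, at 1.16 and 1.16 for Tex19.1, at 1.15 and 1.43 for Mael, and at 1.14 and 1.06 for Piwil2. These 4 genes were beyond the EPSC parent. The libraries lay at 0.79 and 0.76 for Ddx4, at 0.68 and 0.82 for Sycp3, and at 0.57 and 0.60 for Sycp1, which were between the parents and, on this log scale, nearer to EPSCs. Set against the mean of both parents in FPKM, the hybrid level was 6.09 times as high for Dazl, 4.29 times for Tex19.1, 3.71 times for Mael, and 2.47 times for Piwil2. The ratio was 1.09 for Ddx4, 0.954 for Sycp3, and 0.825 for Sycp1, so that in FPKM Sycp1 lay nearer to NSCs. The hybrid libraries of Sycp3, at 5.26 and 8.07 FPKM, lay on both sides of its parental mean of 6.99 FPKM. These positions are descriptions with no test, and FPKM cannot tell from which parental genome a transcript came.

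The 3 genes below the filter were also fitted with no filter on low values. None of them was called between hybrid cells and EPSCs, with adjusted p = 0.0851 for Tdrd9, 0.616 for Slc25a31, and 0.878 for Asz1 in limma. Slc25a31 exceeded its NSC level in EPSCs (0.89 ± 0.14, adjusted p = 0.00155), in hybrid cells (0.78 ± 0.14, adjusted p = 0.00287), and in ESCs (0.49 ± 0.14, adjusted p = 0.0211), and was not called between EPSCs and ESCs (adjusted p = 0.0634). Asz1 was higher in EPSCs than in ESCs (0.26 ± 0.08, adjusted p = 0.0339), where it was listed at 0, and exceeded the NSC level, also listed at 0, in EPSCs (adjusted p = 0.022) and hybrid cells (adjusted p = 0.0316). ESCs and NSCs did not differ in Asz1, since it was at 0 in both. Tdrd9 was higher in hybrid cells than in NSCs (0.20 ± 0.04, adjusted p = 0.0038) and was not called in EPSCs against NSCs (adjusted p = 0.0774), ESCs against NSCs (adjusted p = 0.164), or EPSCs against ESCs (adjusted p = 0.693). All these differences are between levels of about 1 FPKM or less.

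Summed over the 10 genes, the class reached 81.7 and 81.9 FPKM in ESCs, 0.188 and 0.280 FPKM in NSCs, 152.5 and 202.2 FPKM in EPSCs, and 321 and 349.2 FPKM in hybrid cells, with Tex19.1 as the main part in EPSCs and hybrid cells and Sycp3 in ESCs. In bulk RNA, a larger share of cells that transcribe a gene and more transcript per cell cannot be told apart. Between the EPSC libraries, 10 of 10 members were higher in the second, compared with 46.4% of all tested genes. Between the hybrid libraries the members split 5 to 5, with Dazl, Mael, Sycp1, Sycp3, and Tex19.1 higher in the second, compared with 46.6% of all tested genes.

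Other genes moved between the same libraries. Stra8, the retinoic acid target that gates entry into meiosis, was at 3.72 and 4.05 FPKM in ESCs, 0 in NSCs, 5.42 and 19.21 FPKM in EPSCs, and 8.66 and 36.7 FPKM in hybrid cells, so it was higher in the second library of each of the last 2 groups. Dnmt3l, a cofactor of the de novo DNA methyltransferases, was lower there, at 111.5 and 58.8 FPKM in EPSCs and 69.9 and 16.8 FPKM in hybrid cells. In ESCs Dnmt3l was at 179.1 and 176.4 FPKM and in NSCs at 0. The 6 markers of two-cell-like cells, a rare state of pluripotent cultures, summed to 9.80 and 24.8 FPKM in EPSCs, 26.4 and 31.3 FPKM in hybrid cells, at most 0.925 FPKM in ESCs, and 0 in NSCs. Their part in the levels of the germline genes was not tested.

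Fibroblast markers also differed between the groups grown on feeder cells. All 8 were called higher in hybrid cells than in EPSCs, beside 22.5% of all tested genes. Of these, Pdgfrb, named after its values were seen, passed the filter through hybrid cells alone, which largely fixed its direction. The sum of the 8 was between 210.2 and 282.6 FPKM in hybrid cells, between 71.1 and 73.2 FPKM in EPSCs, between 11.2 and 12.2 FPKM in ESCs, and between 1.09 and 1.20 FPKM in NSCs. Against ESCs, 7 of the 8 were called higher in EPSCs and 1 was not called, beside 33.7% higher of all tested genes. Among the 7, Col3a1, Dcn, Lum, and Twist2, named after their values were seen, were under 1 FPKM in ESCs and NSCs. They passed the filter only through EPSCs and hybrid cells, which largely fixed their direction, so this count is a description. No fibroblast marker was at 0 in both libraries of ESCs, EPSCs, or hybrid cells. Within the hybrid cells the sum was lower in the second library, where 5 of the 10 germline genes (Dazl, Mael, Sycp1, Sycp3, and Tex19.1) were higher and 5 (Ddx4, Tdrd9, Piwil2, Asz1, and Slc25a31) were lower. The part of feeder cells in the results was not tested.

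**Figure D4:**
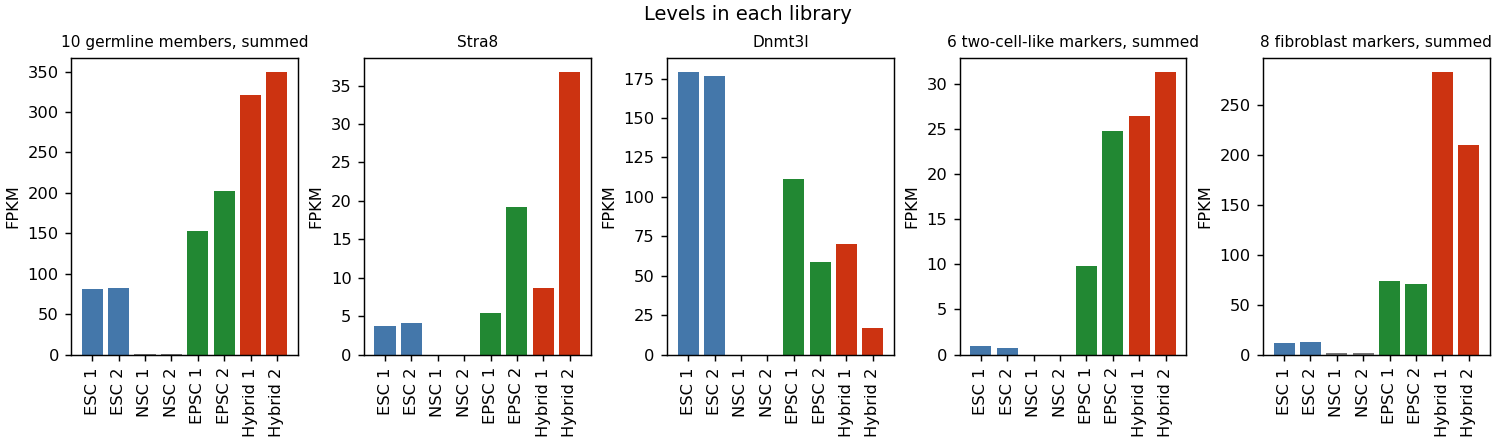
Bars give FPKM in each of the 8 libraries on linear axes from 0, for the sum of the 10 germline genes, for Stra8, for Dnmt3l, and for the summed markers of two-cell-like cells and of fibroblasts. The germline sum is higher in both hybrid libraries (321 and 349.2 FPKM) than in both EPSC libraries (152.5 and 202.2 FPKM), and Dnmt3l is lower in the second library of EPSCs and of hybrid cells while Stra8 is higher.

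The class was next set beside other germline genes. Many of these are at or near 0 in NSCs and passed the filter only through the pluripotent groups, which largely fixes their direction against NSCs. Several are also under 1 FPKM in ESCs and passed only through EPSCs or hybrid cells, which does the same against ESCs, so the counts against both groups are descriptions. Of 17 further genes of the piRNA pathway 11 were tested, and in EPSCs 8 were above and 3 below the NSC level, beside 45.2% higher and 41% lower of all tested genes. With no filter, 11 of all 17 were above the NSC level. Counts with no filter, here and below, come from a fit of 19144 genes. The shares of all tested genes from the filtered fit do not apply to them, so they are descriptions only. Tdrd12, a partner of PIWI proteins, had means of 12.6 FPKM in ESCs, 0.0737 in NSCs, 47.3 in EPSCs, and 20.7 in the hybrid cells. Rnf17, a Tudor-domain protein of germ granules, had means of 3.42, 0, 28.5, and 22.8 FPKM in the same order, and Pnldc1, which trims piRNAs, of 10.5, 0.164, 10.7, and 9.61 FPKM. Tdrkh, another Tudor-domain protein, was the reverse, with 29.7 FPKM in NSCs and under 1 FPKM in the other groups. The other 2 that were lower than in NSCs, named after their values were seen, were Tdrd7 and Mybl1.

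Between hybrid cells and EPSCs, 4 of the 11 piRNA genes were higher and 2 lower, with a median of 0.15, beside 22.5% higher and 21.9% lower of all tested genes. With these 2 groups alone, 4 were called and 2 of them were higher, beside 29.1% called of all genes instead of 44.4%. The higher count also fell when the first EPSC library was left out. Tdrd12 was lower by a log2 difference of -1.20 ± 0.22 (adjusted p = 0.00457) and Rnf17 by -0.31 ± 0.07 (adjusted p = 0.0109), and Pnldc1 and Tdrkh did not pass the test. Fkbp6, a chaperone partner in the pathway, was chosen after its values were seen. It was at 40.3 and 43.8 FPKM in hybrid cells, 3.65 and 9.56 FPKM in EPSCs, 0.175 and 0.0634 FPKM in ESCs, and 0 in NSCs, a log2 difference of 2.62 ± 0.32 between hybrid cells and EPSCs (adjusted p = 0.00103). Its order of groups is that of Dazl and Tex19.1. Against ESCs, 5 of the 11 piRNA genes were higher in EPSCs and 1 was lower, beside 33.7% and 27.3% of all tested genes. In the fit of 19144 genes with no filter, 5 of all 17 were higher.

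Sycp1 and Sycp3 belong to the genes of meiotic chromosomes. Of 23 further listed genes 17 were tested, and 15 were above and 2 below the NSC level in EPSCs, where 45.2% of all tested genes were higher and 41% lower. In the fit of 19144 genes with no filter, to which these shares do not apply, 18 of all 23 were above it. In hybrid cells 1 was higher and 7 were lower than in EPSCs and 9 did not pass, with a median of -0.31, beside 22.5% higher and 21.9% lower of all tested genes. The 8 of 17 called are close to the 44.4% called of all tested genes. In a fit of these 2 groups alone, 4 of 15 tested genes were called, beside 29.1% of all genes, and 0 of them were higher. Syce2, a central element protein of the synaptonemal complex, had means of 101 FPKM in ESCs, 5.89 in NSCs, 77.9 in EPSCs, and 36.1 in the hybrid cells, a difference of -1.09 ± 0.06 between hybrid cells and EPSCs (adjusted p = 8.3e-05). Dmc1, the meiotic recombinase, had means of 7.31, 0.0188, 11, and 7.06 FPKM, a difference of -0.57 ± 0.11 (adjusted p = 0.00512).

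Rec114, which is needed for meiotic DNA breaks, did not pass the test, at 32.8 ± 5.28 FPKM in EPSCs and 35.4 ± 2.29 FPKM in hybrid cells (SD, n = 2; log2 difference 0.11 ± 0.12, adjusted p = 0.47 in limma). It was near silent in ESCs, with a mean of 0.318 FPKM, and was 4.67 ± 0.12 higher in EPSCs on the log2 scale (adjusted p = 7.7e-07). Stra8 differed between hybrid cells and EPSCs by 0.75 ± 0.68 (adjusted p = 0.407), with overlapping libraries. The gene that was higher in hybrid cells, named after its values were seen, was Syce1. Of the 17 genes, 7 were higher and 3 lower in EPSCs than in ESCs, beside 33.7% and 27.3% of all tested genes. In the fit of 19144 genes with no filter, 6 of all 23 were higher.

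Of 20 other germ cell genes 11 were tested, and between hybrid cells and EPSCs 8 were higher, 2 lower, and 1 was not called, with a median of 0.64, beside 22.5% higher and 21.9% lower of all tested genes. Tex101, a higher gene named after its values were seen, passed the filter through hybrid cells alone, which largely fixed its direction. With no filter, 12 of all 20 were called and 10 of them were higher, beside 30% called of all genes in that fit. Rpl10l, a ribosomal protein gene of the testis, had means of 22.8 FPKM in ESCs, 0 in NSCs, 32.2 in EPSCs, and 72.3 in the hybrid cells, a log2 difference of 1.16 ± 0.13 between the last 2 (adjusted p = 7.1e-04). Sohlh2, a transcription factor of early germ cells, had means of 0.893, 0, 11.2, and 26 FPKM (1.15 ± 0.11, adjusted p = 4.1e-04). Tex14, a protein of germ cell bridges, had means of 7.57, 0.0344, 7.13, and 11.6 FPKM (0.64 ± 0.11, adjusted p = 0.00309). Tuba3a, a testis tubulin with the near-identical copy Tuba3b, so that its counts are uncertain, had means of 3.32, 0, 8.37, and 27.5 FPKM (1.62 ± 0.25, adjusted p = 0.00244). The 2 that were lower, named after their values were seen, were Tex15 and Ldhc. Of these, Ldhc passed the filter through EPSCs alone, which largely fixed its direction. Against NSCs, 9 of the 11 were higher in EPSCs and 1 was lower, beside 45.2% and 41% of all tested genes. In the fit of 19144 genes with no filter, 12 of all 20 were higher. Against ESCs 8 were higher and 1 was lower, beside 33.7% and 27.3%. In the fit with no filter, to which these shares do not apply, 9 of all 20 were higher.

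**Figure D5:**
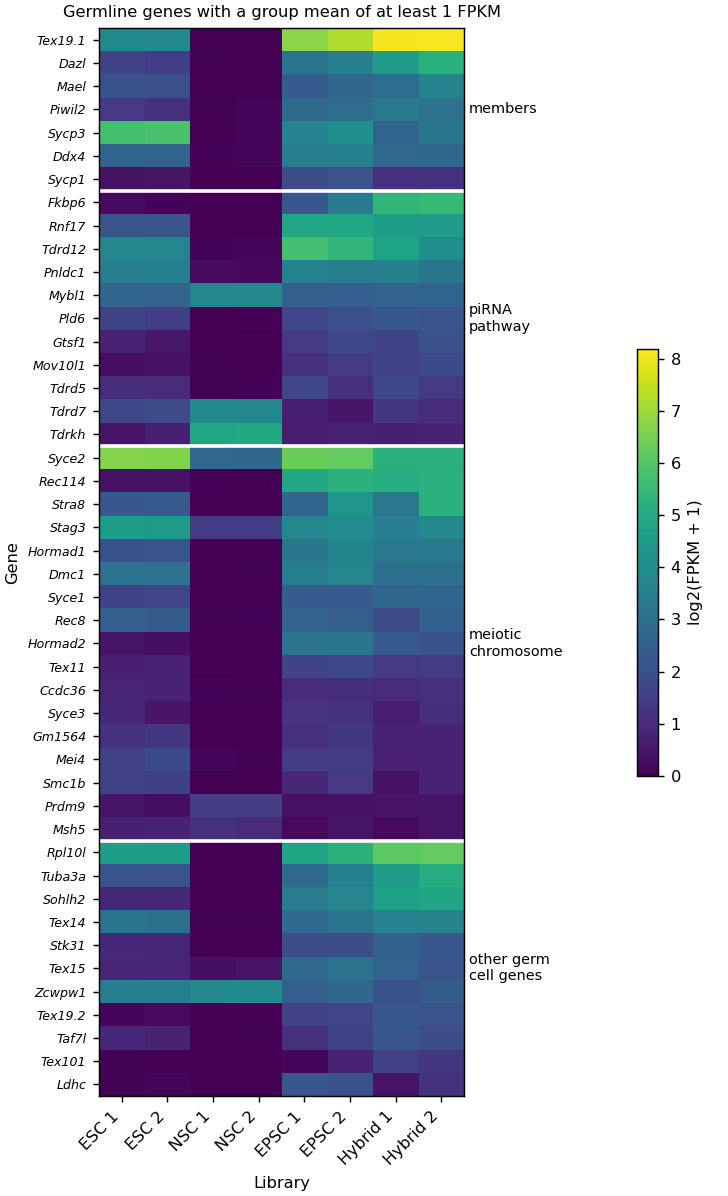
Colour gives log2(FPKM + 1) in each of 8 libraries (columns) for the tested germline genes (rows), grouped as the members of the class, the piRNA pathway, meiotic chromosomes, and other germ cell genes. Most rows are dark in NSCs, with Tdrkh, Tdrd7, Mybl1, and Zcwpw1 among the exceptions, of which Zcwpw1 was named after its values were seen. Tex19.1 in hybrid cells, with a mean of 274.2 FPKM, is the brightest.

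Lastly, the repressors known to act on the class were measured. Of 23 repressor genes, 4 were higher and 6 lower in hybrid cells than in EPSCs, 12 were higher and 7 lower in EPSCs than in ESCs, and 12 were higher and 7 lower in EPSCs than in NSCs, with medians of -0.15, 0.18, and 0.21. Over all tested genes, the shares higher and lower were 22.5% and 21.9%, 33.7% and 27.3%, and 45.2% and 41% in the same order. The 10 of 23 called between hybrid cells and EPSCs are close to the 44.4% of all tested genes, and they became 5, with 1 higher, beside 29.1% of all genes, when these 2 groups were fitted alone. The higher count also moved from 4 to 1 without the first EPSC library (7 called) and without the first hybrid library (11 called), and to 2 without the second EPSC library (8 called). E2f6 had means of 10.4 FPKM in ESCs, 22.5 in NSCs, 11.9 in EPSCs, and 13.3 in the hybrid cells, and hybrid cells against EPSCs did not pass the test (adjusted p = 0.148). Pcgf6 had means of 35.8, 8.16, 49.9, and 60.3 FPKM in the same order, and Mga of 16.2, 5.25, 29.6, and 23.7 FPKM. Both Pcgf6 and Mga were higher in EPSCs than in ESCs, by 0.47 ± 0.07 (adjusted p = 0.00106) and 0.84 ± 0.15 (adjusted p = 0.00239). Yaf2, another polycomb partner, was highest in NSCs, with 29.3 FPKM against 3.49 FPKM in EPSCs.

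The DNA methylation enzymes were present in every group, apart from Dnmt3l in NSCs. Dnmt1, which copies methylation at replication, had means of 73.7 FPKM in ESCs, 90.5 in NSCs, 68.2 in EPSCs, and 89 in the hybrid cells, and was higher in hybrid cells than in EPSCs by 0.38 ± 0.06 (adjusted p = 0.00193). Its partner Uhrf1 had means of 136, 91.7, 190.6, and 185.6 FPKM and did not pass the test between hybrid cells and EPSCs (adjusted p = 0.631). Of the de novo enzymes, Dnmt3a was lower in hybrid cells, at 5.75 ± 1.91 FPKM against 12.3 ± 1.48 FPKM (log2 difference -1.001 ± 0.18, adjusted p = 0.00389). Dnmt3b had means of 75.6 FPKM in EPSCs and 80.4 FPKM in hybrid cells (adjusted p = 0.67), and 1.23 FPKM in NSCs. Dnmt3l had a difference of -1.21 ± 0.58 between hybrid cells and EPSCs (adjusted p = 0.13), with overlapping libraries. These are RNA levels, and their part in the levels of the germline genes was not tested.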

How the data were processed

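RNA was sequenced in 8 libraries from 4 cell types, 2 each. According to the methods, the authors made stranded poly-A libraries, trimmed reads with skewer, mapped them to the mm10 mouse genome with STAR 2.7.9a, and used Cuffnorm of Cufflinks 2.2.1 to obtain the deposited FPKM of each gene and library. The annotation, strand setting, and library normalization of Cuffnorm are not given in the sources used here, FPKM did not sum to a common total, and read counts were not used here.

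From the FPKM, log2(FPKM + 1) was tested with limma 3.58.1 in R 4.3.3 (lmFit, contrasts, and eBayes with trend; 4 residual and 3.25 prior degrees of freedom) in 5 two-sided comparisons over the 13239 genes with a mean of at least 1 FPKM in at least 1 group. Genes were called at an adjusted p under 0.05 after Benjamini-Hochberg adjustment over all of them. The rule in the methods (a mean over 3 FPKM and a ratio of means over 3) was applied beside it. On simulated data for hybrid cells against EPSCs with 13239 genes, the fit called 100 of 100 genes changed by log2 1, 100 of 100 changed by log2 2, and 12 unchanged genes. The simulated noise was independent between libraries, with a spread set by the expression level alone. It lacks the differing spread of real genes and the shared deviation of same-numbered libraries, so these counts do not give the power in the real data. Depth was derived from the steps of FPKM on 2247 genes with a single transcript over 1500 nucleotides, taking fragments as 200 nucleotides long. Gene positions are from RefSeq, and promoters from RefSeq (GRCm38.p6). Strands, transcript lengths, and overlapping exons are from GENCODE vM21 (GRCm38), which also entered the choice of the earliest start for the printed stretches. Python 3.11.15 was used for levels and promoters.

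All 10 members are given in every library. Of each other list, the text names up to 4 genes with the largest difference between EPSCs and NSCs among those called there, and Dnmt1, Uhrf1, Dnmt3a, Dnmt3b, Dnmt3l, E2f6, Pcgf6, Mga, Slc25a4, and Slc25a5. Genes outside this rule are marked, apart from the spermatid markers listed at 0. The members and lists were chosen with earlier results of these data known. Alternatives were an added constant of 0.1, no filter on low values, scaling to a common sum, quantile normalization, a replicate block, 2 groups alone, other thresholds of the rule, and each library left out in turn.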

Additional observations from a re-analysis of the deposited data

How the results depend on the processing

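Over 349 combinations of a member, a comparison, and an alternative, 342 kept their direction and their side of the threshold, 4 lost the call, 3 gained it, and 0 changed direction. This count includes the comparisons with NSCs, where the filter largely fixed the direction, so it overstates how stable the other comparisons are. Those that changed concerned Mael and Piwil2 in hybrid cells against EPSCs and Mael in EPSCs against ESCs. Mael in hybrid cells against EPSCs lost its call with no filter on low values (adjusted p = 0.0711 in limma) and with 2 groups alone (0.0828), besides the libraries left out above, and Mael in EPSCs against ESCs gained one with the replicate block (0.0469) and with 2 groups alone (0.0233). Over the 10 alternatives for hybrid cells against EPSCs, the adjusted p was between 9.6e-04 and 0.0135 for Dazl, 3.2e-04 and 0.00886 for Tex19.1, 0.00232 and 0.0376 for Sycp3, 2.1e-04 and 0.0119 for Sycp1, and 9.2e-04 and 0.0104 for Ddx4. The count of members past the rule in hybrid cells against EPSCs was 4 with both thresholds at 2, and 0 to 1 when each library was left out in turn, 0 without the first EPSC library and without the second hybrid library. Between hybrid cells and EPSCs, a fit of 2 groups alone called 4 instead of 8 meiotic genes and 5 instead of 10 repressors. The share called of all genes was then 29.1% instead of 44.4%. For primordial germ cell regulators the count called rose without the second EPSC library. With 2 groups alone, 4 other germ cell genes were called between ESCs and NSCs instead of 8. The cause of these changes was not tested.

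Replicate numbers were shared by groups of 2 libraries, and same-numbered libraries of hybrid cells and EPSCs deviated together with a correlation of 0.28 across genes, against values from -0.112 to 0.069 in the other comparisons, so this pair of groups stood apart. The labels name no shared batch or day, and 2 pairs are too few to settle a pairing, so the number was not made part of the model. With the replicate block, 6060 genes were called between hybrid cells and EPSCs instead of 5881, and 6 members were called as without it. Depth limits what can be said of the NSC levels other than those of Ddx4 and Piwil2, of which all but the first Dazl library lie at or under 3 fragments.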

Other observations

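Of 9 regulators of primordial germ cells 8 were tested. In EPSCs 7 were higher and 1 lower than in NSCs, and 2 were higher and 5 lower than in ESCs (median difference of -0.51 on the log2 scale). Over all tested genes, 45.2% were higher and 41% lower in EPSCs than in NSCs, and 33.7% were higher and 27.3% lower than in ESCs. Of the 7, 6 were under 1 FPKM in NSCs and passed the filter only through the pluripotent groups, which largely fixes their direction. In the fit of 19144 genes with no filter, to which these shares do not apply, 6 of all 9 were higher than in NSCs. Dppa3, which protects maternal methylation in the zygote, had means of 31.9 FPKM in ESCs, 77.6 in EPSCs, and 72.9 in the hybrid cells and was listed at 0 in NSCs. It was higher in EPSCs than in ESCs (log2 difference 1.24 ± 0.12, adjusted p = 1.1e-04 in limma). Kit, the receptor of germ cell survival signals, had means of 10.2 FPKM in ESCs, 4.82 in NSCs, 22.5 in EPSCs, and 30.1 in the hybrid cells, and it was higher in EPSCs than in ESCs by 1.06 ± 0.16 (adjusted p = 0.0011). Prdm14, a regulator of pluripotency and of primordial germ cells, was lower in EPSCs than in ESCs, with 2.92 against 5.31 FPKM (-0.69 ± 0.11, adjusted p = 0.0011), and higher in hybrid cells than in EPSCs by 0.66 ± 0.11 (adjusted p = 0.00273). Tfap2c, another of these regulators, had means between 33.9 and 37.7 FPKM in the pluripotent groups and 0 in NSCs. Between hybrid cells and EPSCs 3 of the 8 were higher and 1 was lower, beside 22.5% higher and 21.9% lower of all tested genes.

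Tex19.2, the neighbouring paralog of Tex19.1, was chosen after its values were seen. It had means of 0.13 FPKM in ESCs, 2.15 in EPSCs, and 3.48 in the hybrid cells and was listed at 0 in NSCs. It was higher in hybrid cells than in EPSCs (log2 difference 0.51 ± 0.08, adjusted p = 0.00236 in limma) and higher in EPSCs than in ESCs (1.48 ± 0.08, adjusted p = 1.0e-05). Tex19.2 passed the filter only through EPSCs and hybrid cells, which largely fixed its direction against ESCs. How the counting divided reads between the paralogs is not given in the sources used here.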
